A study of Homo sapiens with 6 samples.

Results

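The genes of purine nucleotide synthesis were followed in T47D, a long-established luminal breast cancer cell line, after treatment with GDC-0941. They are the 10 genes PRPS1, PPAT, GART, PFAS, PAICS, ADSL, ATIC, IMPDH1, IMPDH2 and GMPS out of 19775 genes on the array, chosen by name as enzymes of the route. Every probe set annotated to only 1 of them was taken, which gave 26 of 41091 probe sets naming a single gene, and no probe set named a member together with another gene. RNA was hybridised to 3 arrays from cells given GDC-0941 for 6 hours and to 3 arrays from control cells whose agent the labels give as none, all grown in serum-supplemented medium. GDC-0941 (pictilisib) inhibits PI3 kinase of class I, which acts upstream of AKT and mTOR. The label writes the dose as 1 mM, which may stand for a micromolar dose with a lost sign. Whether controls received solvent is not stated, nor whether replicates were separate cultures, so p-values measure only how far these arrays scatter, and that scatter may be technical.

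Purine nucleotides, the A and G building blocks of RNA, DNA and energy carriers, are assembled step by step on the sugar phosphate PRPP until the ring of IMP is closed. IMP is then turned into AMP on one branch and GMP on the other. The enzymes take glutamine, glycine, aspartate and one-carbon units from folate, and dividing cells are known for depending on this route. Growth signalling through PI3 kinase, mTOR and MYC is known to raise its activity in cultured cells. Values below are log2 RMA signals, where RMA is the normalization behind the deposited table, and a difference is GDC-0941 minus control on that scale. A gene is represented by its brightest probe set and was called at an adjusted p under 0.05 in limma over all genes. Signals of different probe sets are not compared, as each has its own efficiency.

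The arrays were alike in centre, with medians of 7.34 to 7.38 over all probe sets, and array precision was limited by the number of arrays. GDC-0941 replicate 2 had the narrowest spread of values (SD 1.983, against 2.013 to 2.043 on the other 5 arrays). The label of a luminal line was matched by its markers: GATA3, KRT8, KRT18, KRT19, EPCAM, ESR1, PGR and FOXA1 had mean signals of 11.9 to 14.3, far above the array median. Of these 8 markers PGR and FOXA1 rose and KRT8 and KRT18 fell. Of the markers of other cells, PTPRC and KRT14 lay below the median at 6.20 and 6.17. KRT5, VIM, CD3E and COL3A1 lay at 7.69 to 8.81, PECAM1 at 9.43 and COL1A1 at 10.7, and RMA gives no detection call to say which of these are background. COL1A1 rose by 0.56 (adjusted p = 6.53e-05), and the part of other cells in the results was not tested. In such bulk RNA, fewer cells of a kind and less RNA per cell cannot be told apart.

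Most transcripts of purine synthesis were slightly lower under GDC-0941. Of the 10 genes 7 fell and none rose, where 15.6% of all genes were called lower and 12.1% higher. The median difference was -0.245, against -0.017 over all genes. The falls ran from 1.16-fold (PPAT) to 1.33-fold (PFAS), and ADSL, ATIC and IMPDH2 did not pass. In all 10 genes the 3 GDC-0941 arrays lay below the 3 controls, which held for 24.0% of all genes. Bright genes were called more often: within the range of mean signal that the members span (9.16 to 12.42), 29.3% of 6240 genes were called lower and the median difference was -0.036. In 2431 of those 6240 genes the 3 GDC-0941 arrays lay below the 3 controls.

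The size of the change depends on what the arrays are scaled to. In an alternative called spike-in scaling here, each array's RMA values were shifted so that its 18 hybridisation control probe sets had the same mean. These read transcripts added for the hybridisation step, so the scaling does not measure RNA per cell. The median over all genes was then 0.152, with 4.5% of genes called lower and 28.8% higher, and the median over the members was -0.076. PFAS was then the only member called lower (difference -0.25, adjusted p = 0.0368), and none was called higher. The scatter of the controls between arrays enters every gene alike under this scaling. Its calls and adjusted p-values therefore reflect that shared error as well as the shift, and are not comparable with those of the main fit. The members' median lay below the median of all genes, by a distance that this scaling cannot change, as it shifts every difference equally. GDC-0941 replicate 2 gave the lowest of the 3 treated values in all 10 genes, as it did for 78.8% of genes in the same range of signal. Without that array 5 members were called lower and the median was -0.199.

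**Figure D1:**
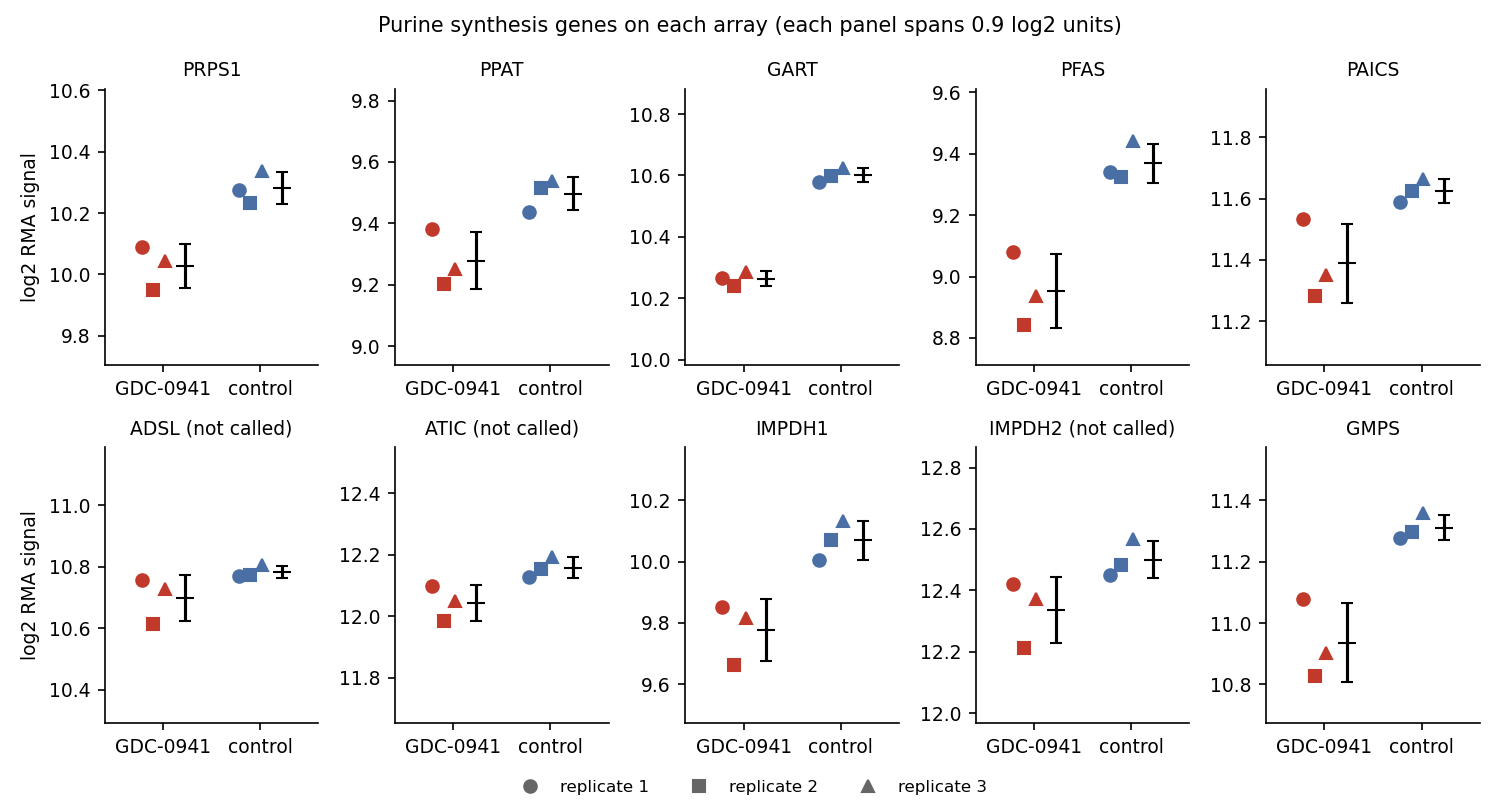
Log2 RMA signal of the brightest probe set of each of the 10 genes on the 3 GDC-0941 arrays (red, left) and the 3 control arrays (blue, right), with marker shapes for replicates 1 to 3 a black bar for mean ± SD and panels of equal height. The treated arrays lie below the controls in each panel, the group means differ most in PFAS and least in ADSL, and replicate 2 is the lowest treated array throughout.

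PRPS1 makes PRPP, the activated sugar on which the ring is built. It had signals of 10.09, 9.95 and 10.04 under GDC-0941, against 10.27, 10.23 and 10.34 in controls. All treated arrays were below all controls, and PRPS1 fell by 0.25 ± 0.06 (SE, adjusted p = 0.00772). Its other probe set, which is dimmer, had 8.86, 8.74 and 8.78 under GDC-0941, against 9.22, 9.30 and 9.38 in controls. That probe set fell by 0.51 ± 0.07 (SE, adjusted p = 0.000323 over all probe sets), the largest change among the 26. It was one of 4 member probe sets called lower under spike-in scaling.

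PPAT, the amidotransferase that commits PRPP to the purine route, had signals of 9.38, 9.20 and 9.25 under GDC-0941, against 9.44, 9.51 and 9.54 in controls. The groups did not overlap, but the gap between the nearest arrays was small. PPAT fell by 0.22 ± 0.06 (SE, adjusted p = 0.0233). The call was lost with the replicate number as a block (adjusted p = 0.0538) and when replicate 2 or 3 of either group was left out (adjusted p 0.0735 to 0.0863). It was also lost with the mean of the 3 PPAT probe sets, where the difference was -0.088 (adjusted p = 0.289). A second PPAT probe set of like signal differed by -0.19 without passing. The third, below the array median with a mean of 6.90, differed the other way by 0.15, with 6.96, 6.96 and 6.99 under GDC-0941 against 6.78, 6.87 and 6.81 in controls (adjusted p = 0.107).

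PAICS, which joins carboxylation of the ring precursor to the addition of aspartate, had signals of 11.53, 11.28 and 11.35 under GDC-0941, against 11.59, 11.62 and 11.66 in controls. Treated replicate 1 came close to the lowest control. PAICS fell by 0.24 ± 0.07 (SE, adjusted p = 0.0239), a call lost when any of the same 4 arrays as for PPAT was left out (adjusted p 0.0639 to 0.0864). Another PAICS probe set showed a wider gap, with 10.52, 10.20 and 10.22 under GDC-0941 against 10.78, 10.77 and 10.83 in controls. It fell by 0.48 ± 0.08 (SE, adjusted p = 0.00209 over all probe sets) and was also called lower under spike-in scaling. The third, with a mean signal of 6.32, differed by -0.20 and did not pass (adjusted p = 0.165). Where that dim probe set stands for PAICS, as the only one with no mark for possible cross-hybridisation in its name, the gene was not called (adjusted p = 0.129).

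PPAT and PAICS are neighbours on chromosome 4 and are read in opposite directions from one stretch of DNA. One of the 3 start sites of PAICS in the RefSeq table lies 137 bases from that of PPAT, inside the window shown for PPAT. The window is printed because the brightest probe sets of both genes fell. By these, the change of PPAT minus that of PAICS was 0.02 ± 0.02 (SE). Exact permutation gave p = 0.4 (two-sided, 0.4 adjusted over 3 pairs). The smallest p it allows is 0.1, so it cannot decide whether the falls differed. With the mean of all probe sets of a gene, PPAT differed by -0.088 (adjusted p = 0.289) and PAICS by -0.306 (adjusted p = 0.00276). How alike the falls were depends on the probe sets used. Capitals mark the only E-box, the letters CACGTG that MYC with MAX and several related factors bind. It begins at position -182 relative to the PPAT start and 40 bases after that PAICS start. The sequence runs along the minus strand of GRCh38.p14, chr4:56435566-56435865, 250 bases before to 50 after the PPAT start (RefSeq).
PPAT: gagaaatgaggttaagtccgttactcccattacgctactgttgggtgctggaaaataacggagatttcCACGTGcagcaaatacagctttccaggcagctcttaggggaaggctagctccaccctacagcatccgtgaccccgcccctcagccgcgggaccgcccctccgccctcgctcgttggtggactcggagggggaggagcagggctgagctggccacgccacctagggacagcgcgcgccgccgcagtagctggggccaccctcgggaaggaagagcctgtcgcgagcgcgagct

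GART carries out 3 of the early steps in one protein and is read by 9 probe sets. The brightest had signals of 10.26, 10.24 and 10.29 under GDC-0941, against 10.58, 10.60 and 10.62 in controls. The arrays of each group lay close together, with an SD of 0.024 under GDC-0941 and 0.023 in controls, and far from the other group. GART fell by 0.34 ± 0.05 (SE, adjusted p = 0.000571). Of its other probe sets 3 also fell, by 0.45, 0.44 and 0.20. The call of the last (adjusted p = 0.0393 over all probe sets) was lost under the replicate block, with arrays set to a common median, under spike-in scaling and when any array but GDC-0941 replicate 1 was left out. With the mean of all 9 probe sets GART differed by -0.193 (adjusted p = 0.0147). The remaining 5 did not pass: 1 had a mean signal of 8.78 and a difference of 0.01, and 4 had means of 4.10 to 6.93 with differences of -0.33 to 0.04. Which part of the transcript each probe set reads was not analysed here.

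PFAS uses glutamine to add a nitrogen to the precursor between the steps of GART. It had signals of 9.08, 8.84 and 8.94 under GDC-0941, against 9.34, 9.32 and 9.44 in controls. PFAS is read by 1 probe set and showed the largest fall of the 10 genes, 0.42 ± 0.07 (SE, adjusted p = 0.000835). Together with PRPS1, GART, IMPDH1 and GMPS it was called whichever array was left out.

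ADSL and ATIC close the common part of the route: ADSL releases fumarate here and again on the AMP branch, and ATIC adds the last carbon and closes the ring. ADSL had signals of 10.76, 10.61 and 10.73 under GDC-0941, against 10.77, 10.77 and 10.80 in controls. Treated replicate 1 lay just under the lowest control. The difference was -0.08 ± 0.06 (SE, adjusted p = 0.347) with a 95% interval of -0.21 to 0.04, and its second probe set gave -0.09. ATIC had signals of 12.10, 11.98 and 12.05 under GDC-0941, against 12.13, 12.15 and 12.19 in controls. The difference was -0.11 ± 0.06 (SE, adjusted p = 0.173) with a 95% interval of -0.24 to 0.01. Under spike-in scaling both signs turned, to 0.086 for ADSL and 0.055 for ATIC, and neither passed. Missing the threshold does not show that these transcripts were unchanged, and the ATIC interval includes a fall as large as that measured for PPAT.

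ATIC is also the member whose promoter window holds an E-box more than once. Its window is printed because it holds the same letters as that of PPAT. Whether these letters bear on the changes was not tested. Capitals mark both copies, which begin at position -46 and 29 bases after the start site. The sequence is the plus strand of GRCh38.p14, chr2:215311809-215312108, with the same extent around the start (RefSeq).
ATIC: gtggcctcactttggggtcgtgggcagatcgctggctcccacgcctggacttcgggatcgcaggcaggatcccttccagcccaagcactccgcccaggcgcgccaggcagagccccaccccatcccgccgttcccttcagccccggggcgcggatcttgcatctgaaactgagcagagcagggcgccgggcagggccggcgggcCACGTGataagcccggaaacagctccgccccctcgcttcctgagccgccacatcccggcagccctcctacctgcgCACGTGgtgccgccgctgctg

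The RefSeq table held 12 windows for 8 of the 10 genes, all but ADSL and IMPDH2. CACGTG, which reads the same on both strands, was in 3 of the 12 windows, 1 each of PPAT, PAICS and ATIC. The PPAT and PAICS windows share 1 copy. These letters were in 7.26% of the 35116 windows in the table. The FOXO letters TGTTTAC or their complement GTAAACA were in none of the 12 and in 3.42% of all windows. The composite letters TGATGCAA or TTGCATCA, a form bound by ATF4 with C/EBP factors, were in none of the 12 and in 0.866% of all. The windows differed in base composition, with a GC content of 43.0% to 79.3% and a median of 66.0%, against 58.7% over all windows. A match to such letters is a description of the sequence and not of binding.

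**Figure D2:**
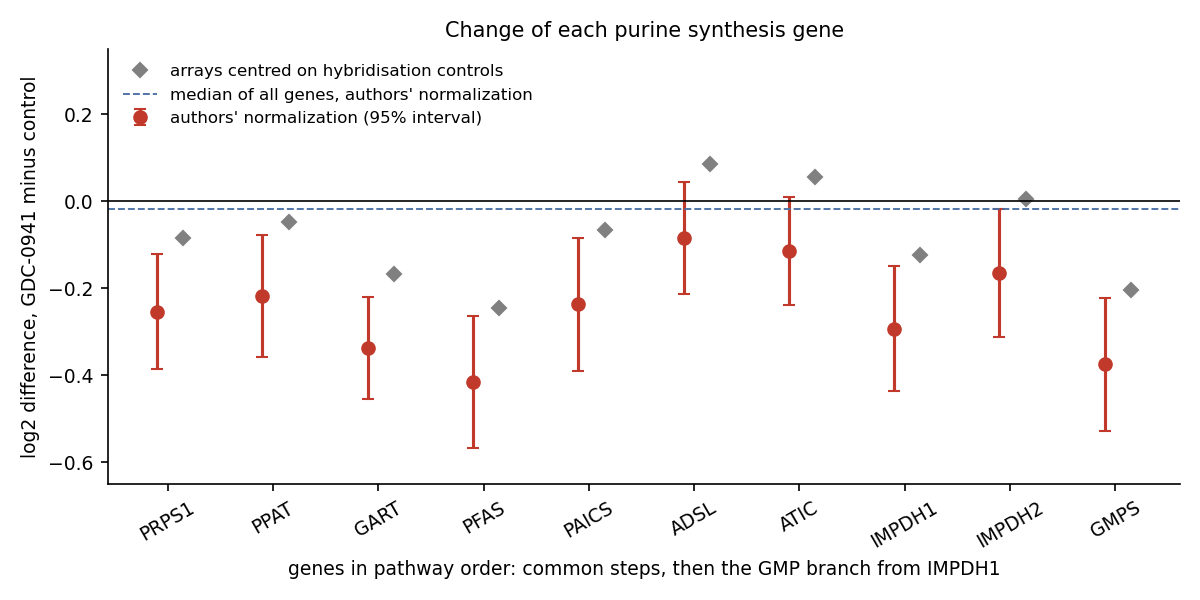
Log2 difference (GDC-0941 minus control) of the 10 genes in pathway order, with 95% intervals from limma (red), and the same difference under spike-in scaling (grey diamonds) and the median of all genes, -0.017, as a dashed line. ADSL, ATIC and IMPDH2 lie nearest to 0, and the grey points lie above the red ones by the same amount for every gene.

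On the branch to GMP, IMPDH1 and IMPDH2 are isoenzymes for the oxidation of IMP, the rate-limiting step of that branch, with IMPDH2 known as the form that proliferating cells use most. IMPDH1 had signals of 9.85, 9.66 and 9.82 under GDC-0941, against 10.01, 10.07 and 10.13 in controls. It fell by 0.29 ± 0.07 (SE, adjusted p = 0.00552). IMPDH2 had signals of 12.42, 12.21 and 12.37 under GDC-0941, against 12.45, 12.48 and 12.57 in controls. The groups lay side by side without overlap, and the difference of -0.17 ± 0.07 (SE) did not pass (adjusted p = 0.0932, 95% interval -0.31 to -0.02). IMPDH2 passed with a variance trend and robust estimation, with array weights, among genes above the median signal and without GDC-0941 replicate 1 (adjusted p 0.0144 to 0.0482), and its sign turned to 0.005 under spike-in scaling.

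The change of IMPDH1 minus that of IMPDH2 was -0.13 ± 0.01 (SE), and the within-array ratio of the isoenzymes was lower on every GDC-0941 array than on any control. The exact permutation test gave p = 0.1 (two-sided, 0.15 adjusted over 3 pairs), the smallest value 3 against 3 arrays allow, so it cannot reach 0.05. For PRPS1 and its isoenzyme PRPS2 the change of the first minus the second was -0.12 ± 0.03 (SE, exact permutation p = 0.1, 0.15 adjusted over 3 pairs). PRPS2 had signals of 10.35, 10.11 and 10.22 under GDC-0941, against 10.34, 10.34 and 10.41 in controls. The PRPS2 groups overlapped, and the difference of -0.14 ± 0.07 (SE) did not pass (adjusted p = 0.17).

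GMPS completes GMP with an amino group from glutamine. Its brightest probe set had signals of 11.08, 10.83 and 10.90 under GDC-0941, against 11.28, 11.30 and 11.36 in controls. GMPS fell by 0.37 ± 0.07 (SE, adjusted p = 0.0017), second to PFAS among the members. A second probe set fell by 0.31 ± 0.06 (SE, adjusted p = 0.004 over all probe sets), with 9.74, 9.62 and 9.71 under GDC-0941 against 10.01, 9.96 and 10.01 in controls. The third, with a mean signal of 8.65, differed by -0.11 with overlapping groups.

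Over all 26 probe sets 13 were called lower and none higher in the fit to 54613 probe sets, where 9.89% were called lower and 8.88% higher. All 13 were among the 20 with a mean signal above the median of all probe sets, 7.36, and the median difference of those 20 was -0.245. The 6 at or below it had a median of -0.011 and no calls. With all probe sets split into 20 bins of signal, the bins above 8.40 had 16.6% to 27.8% called lower. In 17 of the 26 the treated arrays lay below all controls, as they did in 18.8% of all probe sets. Under spike-in scaling 4 were called lower and 1 higher: the 4 were a probe set each of PRPS1 and PAICS and a pair of GART, and the 1 was the dim PPAT probe set. Of the 6 genes with more than 1 probe set, ADSL alone had none called.

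**Figure D3:**
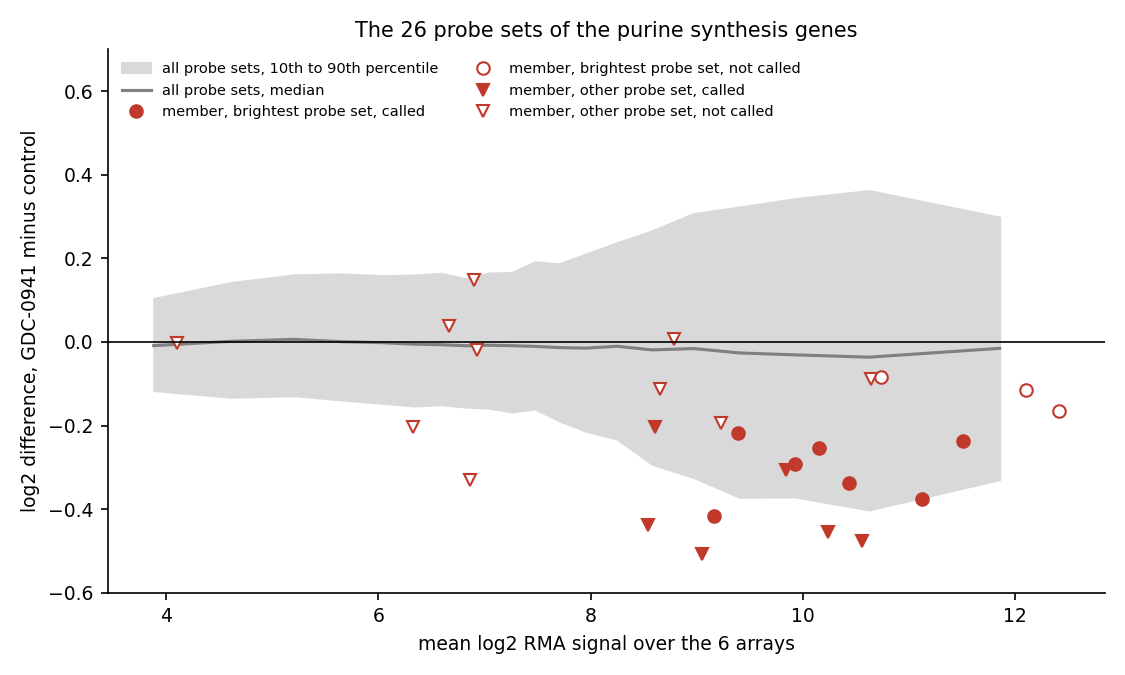
Log2 difference (GDC-0941 minus control) against mean log2 RMA signal for the 26 member probe sets, filled where called lower at an adjusted p under 0.05, with circles for the brightest probe set of a gene and triangles for the others, over a grey band and line for the 10th to 90th percentile and the median of all probe sets in 20 bins of signal. Called probe sets all have a signal above 8.5, and the dim ones scatter on both sides of 0.

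Genes that feed, share or compete with the route were counted in the same way, read against 15.6% of all genes lower and 12.1% higher, or 4.5% lower and 28.8% higher under spike-in scaling. Among 15 measured genes of PRPP supply and nucleotide interconversion 6 fell and none rose, with a median of -0.137 (4 and 2 under spike-in scaling, median 0.033). ADSS1, which starts the AMP branch from IMP in muscle, fell by 0.52, AK1, which equilibrates adenine nucleotides, by 0.44, and AMPD2, which returns AMP to IMP, by 0.44. ADSS1 has 2 probe sets and only 1 was called, and ADSS2 of the same list was not analysed here. Of 13 genes of purine salvage and breakdown 6 fell and 2 rose, with a median of -0.132 (4 and 2 under spike-in scaling, median 0.038). PNP, which splits nucleosides, fell by 0.67, and the salvage transferases HPRT1 and APRT fell by 0.62 and 0.52. Of the 2 HPRT1 probe sets 1 was called, and their mean differed by -0.363.

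In the pentose phosphate pathway, the source of the ribose in PRPP, 1 of 6 genes fell and none rose (none called under spike-in scaling): TALDO1, the transaldolase, by 0.30. Among 11 serine and folate enzymes, which make glycine and the one-carbon units of the ring, 4 fell and 1 rose (2 and 3 under spike-in scaling; 2 and 1 without GDC-0941 replicate 2 or without control replicate 3). PSAT1 of serine synthesis fell by 1.60, PSPH of the same route fell by 0.73, PHGDH, its first enzyme, fell by 0.25 and the folate enzyme MTHFD1 fell by 0.17, while mitochondrial MTHFD2 rose by 0.34. One of the 3 PSPH probe sets was called the opposite way, 1 of the 2 MTHFD2 probe sets was called, and no MTHFD1 probe set passed over all probe sets. With the mean of its 2 probe sets MTHFD1 differed by only -0.014 (adjusted p = 0.909). The PHGDH call was lost without GDC-0941 replicate 2 or control replicate 3 (adjusted p 0.0534 and 0.0564), and that of MTHFD1 without any array but GDC-0941 replicate 1 (adjusted p 0.101 to 0.104).

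Pyrimidine synthesis, the sister route, had 7 of 11 genes lower and none higher, with a median of -0.347 (5 and 1 under spike-in scaling, median -0.178). CTPS1, which makes CTP, fell by 1.29, DCTD by 0.53 and CAD, the enzyme of the first steps, by 0.53, with 1 of the 2 CAD probe sets called. The difference between the purine and pyrimidine lists was not tested. Ribonucleotide reductase, which makes the deoxy forms of both kinds, split: its S-phase subunit RRM2 fell by 0.67, the p53-linked subunit RRM2B rose by 0.55 and RRM1 did not pass.

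Of 4 transcription factors linked to purine genes 2 fell and 1 rose (1 and 2 under spike-in scaling). MYC, known to bind E-boxes of purine genes, had signals of 10.73, 10.48 and 10.55 under GDC-0941, against 10.06, 10.07 and 10.25 in controls. The MYC groups did not overlap, and MYC rose by 0.46 ± 0.08 (SE, adjusted p = 8e-04). E2F1, a driver of S-phase genes, fell by 0.70 (adjusted p = 3.22e-05). ATF4, which acts on serine and one-carbon genes, fell by 0.18 (adjusted p = 0.0442), a call kept only without GDC-0941 replicate 1 among the fits that left out an array (adjusted p 0.0598 to 0.13 in the others), and its probe set did not pass over all probe sets.

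**Figure D4:**
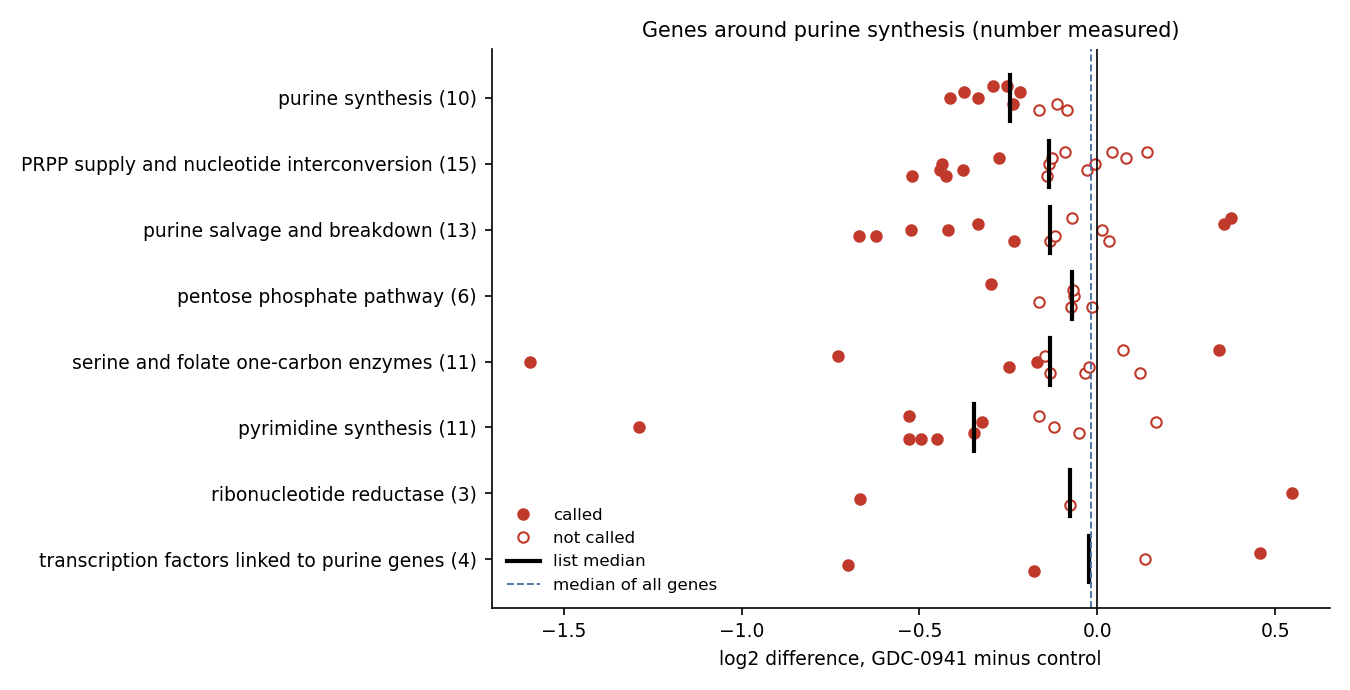
Log2 difference (GDC-0941 minus control) of each measured gene in the purine synthesis list and 7 related lists, filled where called at an adjusted p under 0.05, with black bars for list medians and a dashed line for the median of all genes, -0.017. The purine synthesis genes all lie between -0.42 and -0.08, whereas the salvage, serine and folate, reductase and transcription factor lists hold called genes on both sides of 0.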

How the data were processed

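The deposited table holds log2 signals of 54675 probe sets on 6 arrays, made by the authors with RMA per the submitters' processing notes (version and chip definition not given in the sources used here); the log2 scale was read from the values, 3.00 to 14.81. RMA brings the arrays close to one distribution, which removes most of any shift common to most genes. The probe set values still differed slightly in spread, with array SDs of 1.983 to 2.043. Probe sets were named through the platform annotation and current symbols by Entrez identifier (RefSeq, GRCh38.p14): 41091 name 1 gene, 1801 several and 11721 none, beside 62 controls. Each of 19775 genes was represented by its probe set with the highest mean. The contrast of GDC-0941 with control was fitted in limma 3.58.1 under R 4.3.3 (lmFit, eBayes, two-sided, Benjamini-Hochberg over all genes, or over all 54613 probe sets for single probe sets), called at an adjusted p under 0.05. The fit was tested on simulated data with independent noise for each gene, so that test does not cover error shared by the genes of an array. Pairs of genes were compared by exact permutation of within-array differences.

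Named were all members with every probe set, PRPS2, MYC and ATF4, and from each other list its called genes where 5 or fewer, otherwise the 3 with the largest change. COL1A1 was singled out after its value was seen. Members, lists, motifs and alternatives were chosen with earlier results of these data known. Some genes of the related lists were not analysed here, and counts are over the measured ones. Alternatives were a replicate block, each array left out, 3 other scalings, other variance models, a filter on signal, other probe set rules and an adjusted p under 0.01. Figures used matplotlib 3.10.9.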

Additional observations from a re-analysis of the deposited data

How the results depend on the processing

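Under spike-in scaling 1 purine synthesis gene was called lower in place of 7, the median of the 10 was -0.076 and 4 probe sets were lower and 1 higher. These counts also carry the error that the controls add to all genes of an array. That scaling also turned ADSL to 0.086, ATIC to 0.055, IMPDH2 to 0.005 and PRPS2 to 0.033, none of them passing. The controls did not shift evenly: the dimmest, bioB, differed by -0.14 to -0.27, bioC by -0.25 to -0.28 and the brightest, cre, by -0.03 to -0.08. The cause was not tested. At an adjusted p under 0.01, 8 of the 26 probe sets stayed lower, and with array weights 1 was higher (PPAT, the dim one), while calls over all genes came to 9411, against 5488 without weights. Preferring probe sets whose name carries no mark for possible cross-hybridisation replaced those of PPAT and PAICS by dim ones, with differences of 0.149 and -0.204, neither called. Leaving out each array in turn gave 5 to 8 genes lower, none higher, a median of -0.297 to -0.199 and 9 to 15 probe sets lower. With the replicate number as a block 6 genes and 10 probe sets were lower, and PPAT was lost (-0.218, adjusted p = 0.0538). The numbers were not taken as pairs: deviations of same-numbered arrays correlated at -0.346, 0.187 and -0.017. Only control replicate 2 correlated best with its own number. In the other alternatives, 5 to 9 genes were lower and none higher.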
